A study of Trichechus manatus latirostris with 11 samples.

Results

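The genes described here form a list of 39 genes of the endoplasmic reticulum (ER) stress response and the integrated stress response, chosen by name for their known functions. The table examined holds 15298 RefSeq transcript records measured in manatee buffy coat, the layer of white blood cells and platelets that forms when blood is spun. A row with the gene's symbol was found for 28 of the 39 genes, and each of the 28 had 1 row. CREB3, XBP1, DDIT3, CREBRF, NUPR1, ASNS, CANX, P4HB, SEC61B, UFM1 and WFS1 had no row under their symbol in the pairing used and were not analysed here. Symbols could be paired with 65.9% of all rows.

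Secreted and membrane proteins fold in the ER. When unfolded proteins accumulate there, the sensors ERN1 (IRE1), EIF2AK3 (PERK) and ATF6 start the unfolded protein response, which raises the output of chaperones and of the machinery that returns misfolded proteins to the cytosol for degradation. EIF2AK3 shares its target, the initiation factor eIF2, with kinases that sense heme shortage, amino acid shortage and viral RNA. Phosphorylated eIF2 slows general protein synthesis but favours the translation of ATF4, a transcription factor for amino acid supply, redox balance and its own shut-off, and this shared route is the integrated stress response. In blood, antibody-secreting plasma cells carry a large ER and depend on this response.

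RNA sequencing compared adult Florida manatees treated for red tide illness with control adults. The red tide group comprised 4 animals held at a zoo, some sampled on arrival and others after a week of treatment. The 7 controls were 2 animals of the Indian River Lagoon, 4 of Crystal River and 1 animal that was recovering from pneumonia at the same zoo. Globin and ribosomal RNA had been depleted from every sample, and the study describes immediate freezing for the red tide buffy coats as well as storage in RNAlater. Sampling place, sampling date, storage and illness cannot be told apart in this design.

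The values are the authors' mean normalised counts, that is, read counts divided by a size factor for the depth of each library. The table gives 1 mean over 4 libraries and 1 mean over 7 libraries, with no column of a single animal. The columns do not name their groups. By number of animals the 4-library mean matches the red tide group and the 7-library mean matches the controls, but the study's wording on the direction of differences points to the opposite assignment. The sources used here do not settle this. The means are therefore named by their number of libraries, and no ratio is read as red tide against control or the reverse. A log2 ratio above 0 means that the 4-library mean was the higher. No error can be given for a group mean unless the reads of its libraries could be recovered from the mean itself. That was possible only for rows with low counts. The size factors obtained in this way were 1.56, 1.03, 0.620 and 0.372 in the 4-library group and ran from 0.702 to 1.73 in the 7-library group. They stand for relative depth in counted reads, since total counts cannot be had from means. In relative terms, the range of sequenced reads per sample that the study gives is narrower. Counts were not divided by transcript length, so ratios are compared within a gene, and a gene named for the largest count of a list need not have the most transcripts.

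Most genes of the list had similar means in both groups, and 3 well-expressed genes stood apart from the rest. ATF4, PPP1R15A and TRIB1 were 2.94- to 6.99-fold higher in the 4-library mean. The sensors, the factors of ER-associated degradation and all folding factors except PDIA3, whose row held few reads, lay within 2-fold. In all, 5 of the 28 genes (17.9%) had means at least 2-fold apart, 4 of them (14.3%) higher in the 4-library mean and 1 (3.57%) higher in the 7-library mean. Over all 15298 rows the shares were 34.3% in either direction, 23.9% higher in the 4-library mean and 10.4% higher in the 7-library mean. The count of genes past 2-fold was thus below the share of the whole table. Many rows of the table rest on few reads. Among the 22 genes with an overall mean of at least 10, 3 were at least 2-fold apart (13.6%), all 3 higher in the 4-library mean, against 21.9% of the 10225 rows at that level. Of those 10225 rows, 12.3% were higher in the 4-library mean by this measure and 9.59% in the 7-library mean, so the share of genes of the list that were higher in the 4-library mean was near that of the table. Fewer cells of a type and less RNA per cell cannot be told apart in bulk RNA of this kind.

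The median log2 ratio of the 28 genes was 0.25, beside 0.14 over all rows. Relative to the median of all rows, the median of the list was 0.11. Over the rows with an overall mean of at least 10 the median was -0.01, and the 22 genes at that level had a median of 0.27. In sign, 19 of the 28 genes were higher in the 4-library mean and 9 in the 7-library mean. Over all 15298 rows, 8629 were higher in the 4-library mean and 6669 in the 7-library mean. With an overall mean of at least 10, 16 of the 22 genes and 5034 of the 10225 rows were higher in the 4-library mean. Taken relative to the median of all rows, EIF2AK3, PPP1R15B and EDEM2, with log2 ratios of 0.09, 0.01 and 0.04, fall on the other side of 0.

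**Figure D1:**
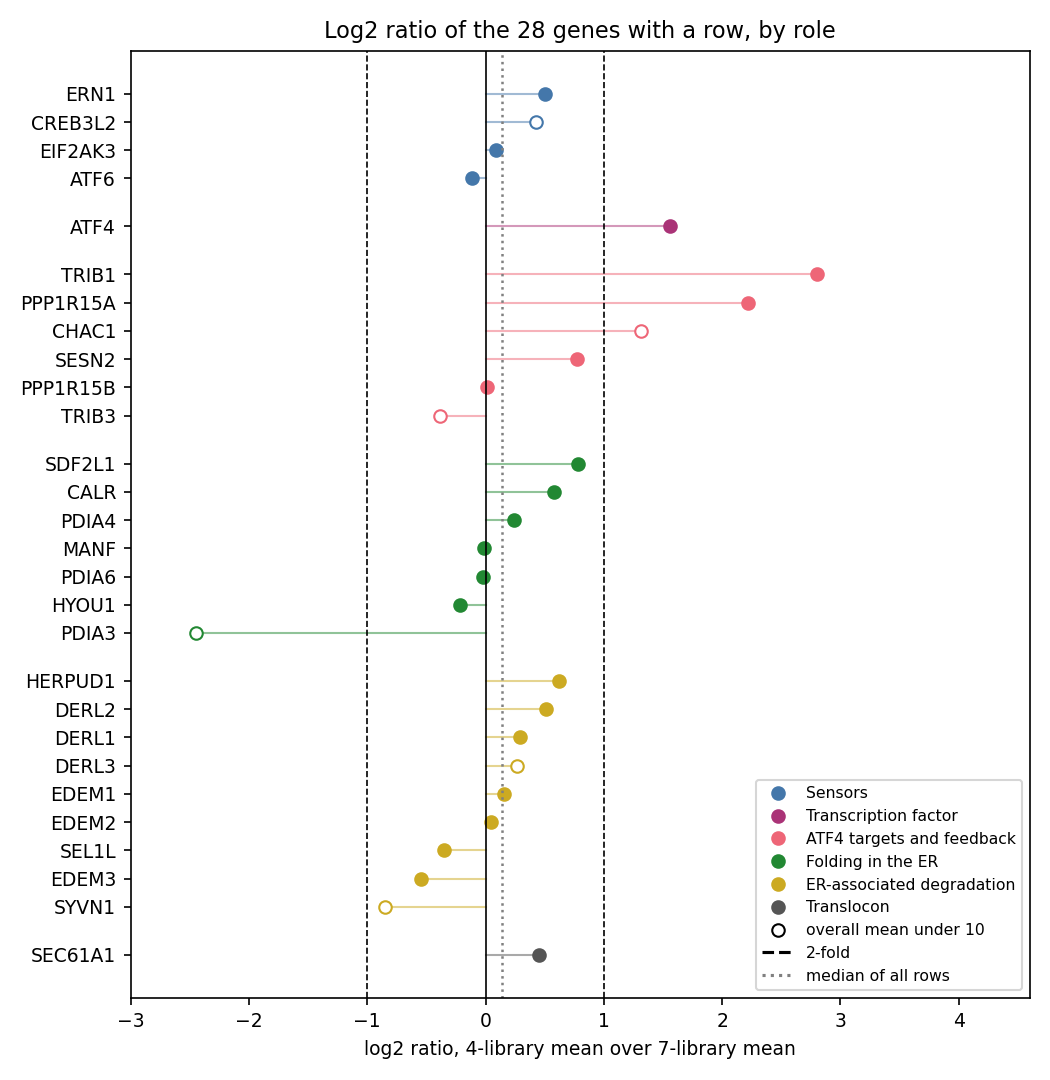
Log2 ratio (4-library mean divided by 7-library mean) for the 28 genes with a row, grouped by role; open circles have an overall mean under 10 normalised counts, dashed lines mark 2-fold and the dotted line the median of all rows (0.14). TRIB1, PPP1R15A, ATF4 and CHAC1 lie to the right of the 2-fold line, PDIA3 lies to the left of the other, and 23 genes lie between.

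The sensors differed little between the means. EIF2AK3, the ER-resident kinase of eIF2, had a 4-library mean of 1218 normalised counts and a 7-library mean of 1148. ATF6, which is cut in the Golgi to release a transcription factor, had means of 492 and 533. The log2 ratio of ATF6 was -0.12. The larger mean exceeded the smaller by 1.06-fold for EIF2AK3 and by 1.08-fold for ATF6, and no error can be given for either gene.

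ERN1 (XM_004374214.1), whose RNase splices XBP1 mRNA, had recovered reads in the 4 libraries. Its normalised counts there were 35.3, 32.1, 59.6 and 48.4 from the largest size factor to the smallest, a mean of 43.9 ± 12.7 (SD, n = 4). The 7-library mean of 30.9 lay just below the lowest of the 4 libraries, and the log2 ratio was 0.51. The difference between the means was close to 1 SD of the 4 libraries, and the spread of the other 7 is not known.

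CREB3L2, a membrane-bound relative of ATF6, was more variable. Its normalised counts were 3.85, 0.974, 11.3 and 21.5 in the 4 libraries, from 22 reads in all, and its 7-library mean was 7.01. The library of size factor 0.372 alone set the direction, as the log2 ratio was 0.42 with it and -0.38 without it. The 7-library mean fell inside the range of the 4 libraries.

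ATF4 (XM_004373876.1) was the only one with a row of the 5 genes grouped as transcription factors, with ATF6 and CREB3L2 counted among the sensors. Its mean was 11214 normalised counts over the 4 libraries and 3816 over the 7 libraries. The log2 ratio was 1.56, a 2.94-fold difference, and 602 of the 10225 rows with an overall mean of at least 10 (5.89%), ATF4 included, had a ratio at least as high. ATF4 protein is controlled mainly through translation, which these counts do not measure. Among the transcription factors without a row, DDIT3 (CHOP) and NUPR1 are ATF4 targets and XBP1 is the substrate of ERN1, so the best-known readouts of these branches were not analysed here.

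The genes grouped here as feedback genes and targets of ATF4 had log2 ratios from -0.38 to 2.81. The highest was that of TRIB1, and whether TRIB1 is a target of ATF4 was not tested. Without TRIB1 the highest was 2.22. PPP1R15A (XM_004381828.1), the inducible subunit that brings a phosphatase to eIF2 and so ends the response, had a 4-library mean of 473 and a 7-library mean of 102. Its log2 ratio was 2.22, a 4.64-fold difference. PPP1R15B, the constitutive subunit with the same task, had means of 335 and 332 and a log2 ratio of 0.01. The inducible and the constitutive subunit therefore differed by more than 2 log2 units in their ratios.

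TRIB1 (XM_004373003.1), a pseudokinase that directs C/EBP factors and other proteins to degradation, had the highest ratio of the list. Its means were 243 over the 4 libraries and 34.8 over the 7 libraries, a 6.99-fold difference and a log2 ratio of 2.81. Its ratio was reached by 216 of the 10225 rows with an overall mean of at least 10 (2.11%), and that of PPP1R15A by 324 (3.17%). For ATF4, PPP1R15A and TRIB1 the means were too high for the reads of single libraries to be recovered, so it is not known whether all 4 libraries or a single one carried the difference.

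TRIB3, the family member known as an ATF4 and CHOP target that inhibits ATF4 activity, did not share the ratio of TRIB1. Its reads could be recovered in all 11 libraries. In the 4 libraries the normalised counts were 8.98, 0, 3.22 and 0, and in the 7 libraries they ran from 1.31 to 9.04 with a median of 2.85. The groups overlapped, with a log2 ratio of -0.38 (exact two-sided permutation test over 330 assignments, p = 0.636). In the 4-library group 14 of the 16 reads came from the library of size factor 1.56, and without it the log2 ratio was -1.89, while without the library of size factor 1.03 or 0.372 it was 0.03.

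SESN2, a sestrin that restrains mTORC1 and responds to ATF4, had normalised counts of 91.1, 66.2, 62.9 and 45.7 in the 4 libraries. The mean of 66.5 ± 18.7 (SD, n = 4) stood beside a 7-library mean of 38.9, which was below each of the 4 libraries. The log2 ratio was 0.77, short of 2-fold, and lay between 0.58 and 0.92 when any 1 of these libraries was omitted. The difference between the means exceeded 1 SD of the 4 libraries.

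CHAC1 (XM_004391427.1), a glutathione-degrading enzyme and a direct ATF4 target, was close to the limit of detection. It had 4 reads in 1 of the 4 libraries and 2 reads in 1 of the 7 libraries, and none in any other. The ratio of the means was 2.48, but the 95% Poisson interval of the 2 reads alone allows 0.687- to 20.5-fold, counting error only. A pseudocount of 1 moved the log2 ratio from 1.31 to 0.38, under 2-fold, and the exact two-sided permutation test gave p = 0.727. Its place among the genes past 2-fold therefore rests on 6 reads.

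**Figure D2:**
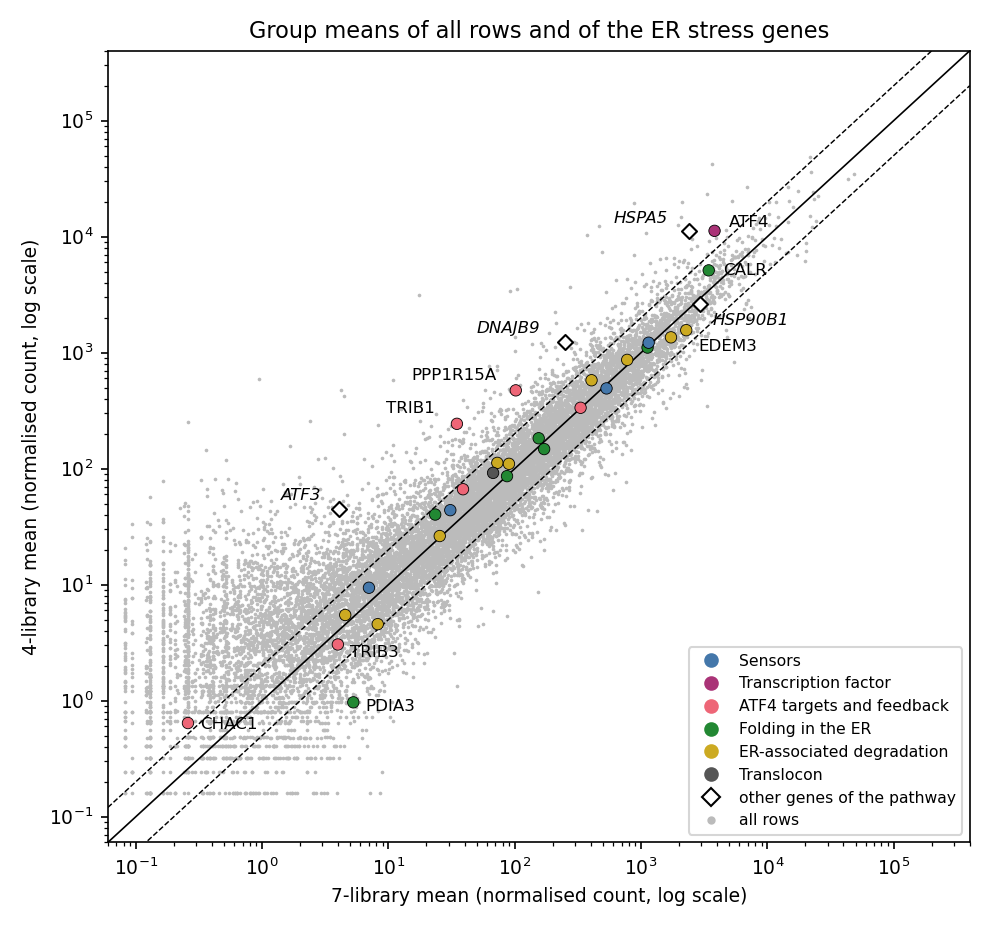
The 4-library mean against the 7-library mean in normalised counts on log axes for all 15298 rows (grey), the 28 genes of the list (circles coloured by role) and 4 other genes of the pathway (diamonds); the solid line marks equal means and the dashed lines 2-fold. TRIB1, PPP1R15A and ATF4 stand above the 2-fold line with DNAJB9, HSPA5 and ATF3, while most other circles follow the line of equal means and CHAC1 lies where single reads form stripes.

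The folding factors of the list gave no common direction. CALR, a lectin chaperone for glycoproteins and a calcium store, had means of 5117 and 3431 and a log2 ratio of 0.58. PDIA4 and PDIA6, disulfide isomerases, had log2 ratios of 0.24 and -0.03. HYOU1, the nucleotide exchange factor of the chaperone HSPA5, had means of 147 and 171, a log2 ratio of -0.21. Of the 7 folding genes with a row, 3 were higher in the 4-library mean, as were 8629 of all 15298 rows. The other 4 were higher in the 7-library mean, and the median log2 ratio of the 7 genes was -0.01.

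Single libraries were available for 3 folding genes. MANF, a secreted factor induced by ER stress, had normalised counts of 96.2, 75.9, 99.9 and 72.6 in the 4 libraries, a mean of 86.2 ± 13.9 (SD, n = 4). Its 7-library mean was 86.8, and the log2 ratio of -0.01 was far smaller than the spread of the 4 libraries. SDF2L1, an ER protein that works with HSPA5, had 43.0, 55.5, 19.3 and 43.0 in the 4 libraries against a 7-library mean of 23.4. Its lowest library, that of size factor 0.620, lay below the 7-library mean, and without it the log2 ratio moved from 0.78 to 1.01, past 2-fold.

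PDIA3 (XM_004380692.1), the disulfide isomerase that acts with calreticulin on glycoproteins, was the only gene of the list at least 2-fold higher in the 7-library mean. Its means were 0.968 and 5.27 normalised counts. The 4-library mean came from 5 reads, of which 3 were in the library of size factor 1.56 and 2 in that of size factor 1.03. The difference was 5.44-fold, and all 4 libraries lay below the 7-library mean. Without the library of size factor 1.03 the log2 ratio moved from -2.44 to -3.04, and with 1 added to both means it was -1.67. The reads of the 7 libraries could not be recovered for this row, and the fold rests on the 5 reads of the 4 libraries.

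ER-associated degradation, in which EDEM proteins select misfolded glycoproteins and the SYVN1 and SEL1L complex and the derlins pass them to the cytosol, was represented by 9 of 9 genes. None was 2-fold apart, against 34.3% of all rows and 21.9% of the rows with an overall mean of at least 10, a level that most of the 9 reached. Of the 9 genes, 6 were higher in the 4-library mean and 3 in the 7-library mean, beside 8629 and 6669 of all 15298 rows. The median log2 ratio of the 9 genes was 0.16. HERPUD1, an ER stress-induced scaffold of this complex, had the highest ratio with means of 112 and 72.8, a log2 ratio of 0.62. SYVN1 had the lowest, at -0.85. The remaining genes lay between them.

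The 3 derlins were all higher in the 4-library mean, with log2 ratios of 0.51 for DERL2, 0.29 for DERL1 and 0.27 for DERL3. Relative to the median of all rows they kept that side of 0. The EDEM genes ran from 0.16 for EDEM1 over 0.04 for EDEM2 to -0.55 for EDEM3. EDEM3 had means of 1561 and 2279 and SEL1L of 1355 and 1725, the latter a log2 ratio of -0.35. In EDEM2 the normalised counts of the 4 libraries were 21.2, 31.2, 25.8 and 26.9, a mean of 26.3 ± 4.10 (SD, n = 4), around a 7-library mean of 25.5. The 7-library mean of EDEM2 was well inside the narrow range of its 4 libraries.

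SYVN1, the ubiquitin ligase of the complex also called HRD1, had reads in all 11 libraries. The normalised counts were 4.49, 1.95, 6.45 and 5.38 in the 4 libraries and ran from 0.654 to 15.9 with a median of 8.55 in the 7 libraries. The groups overlapped (exact two-sided permutation test, p = 0.182). Without the library of size factor 1.53 of the 7-library group, which held 1 read, the log2 ratio was -1.05 and the exact permutation p was 0.0476. Without the library of size factor 0.620 the log2 ratio was -1.06. It was -0.60 without the library of size factor 1.03 of the 4-library group or that of 1.19 of the 7-library group. Apart from the library of size factor 1.53, leaving out a library gave an exact permutation p from 0.133 to 0.367.

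DERL3 is the derlin most tied to secretory cells such as plasma cells. Its normalised counts were 11.5, 8.76, 1.61 and 0 in the 4 libraries, and in the 7 libraries they ran from 0 to 16.3 with a median of 2.52. The groups overlapped (exact two-sided permutation test, p = 0.770). In the 7-library group 25 of the 42 reads came from the library of size factor 1.53, and without it the log2 ratio moved from 0.27 to 1.08. Without the library of size factor 1.56 of the 4-library group it was -0.40, and without that of 1.03 it was -0.05. In both groups a few libraries held most of the DERL3 reads.

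The plasma cell genes MZB1 and FKBP11, picked after their values had been seen, were set beside DERL3 in the same 4 libraries. MZB1, an ER chaperone for antibody assembly, had 148, 130, 16.1 and 5.38 normalised counts, and FKBP11 had 10.3, 17.5, 6.45 and 0. The libraries of size factor 1.56 and 1.03 were high in all 3 genes, and that of size factor 0.372 was lowest in all 3. Other genes of the plasma cell list did not all follow this order. POU2AF1 had 8.34, 9.74, 6.45 and 16.1 normalised counts, and a row of PRDM1 had 10.9, 10.7, 25.8 and 26.9, both highest in the library of size factor 0.372, while the other row of PRDM1 had 5.77, 7.79, 6.45 and 5.38 and was lowest there. Whether plasma cell content accounts for the DERL3 values was not tested. Of 12 plasma cell genes listed, 8 had a row, DERL3 among them, and none was 2-fold apart, against 34.3% of all rows. With an overall mean of at least 10 it was 0 of 6 rows, against 21.9% of the table at that level. The largest normalised count of the list was that of JCHAIN, with means of 1843 and 3495, and the summed means of the list were 2597 and 4080. TNFRSF17, SDC1, CD38 and TXNDC5 had no row under their symbol.

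SEC61A1, the pore-forming subunit of the translocon, was the only one of its group with a row. It had 59.7, 138, 67.7 and 102 normalised counts in the 4 libraries, a mean of 92.0 ± 36.0 (SD, n = 4), and a 7-library mean of 67.4. The log2 ratio of 0.45 was smaller than the spread among the 4 libraries.

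Reads of the 4 libraries were recovered for 12 of the 28 genes. The 7-library mean lay inside the range of the 4 libraries for 8 of them and outside for 4 (outside in 28.3% of the 10145 rows with such reads), above the range for PDIA3 and SYVN1 and below it for ERN1 and SESN2. Reads of all 11 libraries were recovered for 4 genes, CHAC1, TRIB3, DERL3 and SYVN1. None had an exact permutation p under 0.05 with all libraries, whereas 15.2% of the 4774 rows with reads of all 11 libraries did, and for none did the groups separate completely with the 4 libraries above the 7, which held for 2.83% of those rows. The smallest p that 4 against 7 libraries allow is 0.00606. Adjusted by the Benjamini-Hochberg method over the 4774 rows, the exact permutation p-values of the 4 genes were 0.511 to 0.912, and the smallest adjusted p of any row was 0.204.

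**Figure D3:**
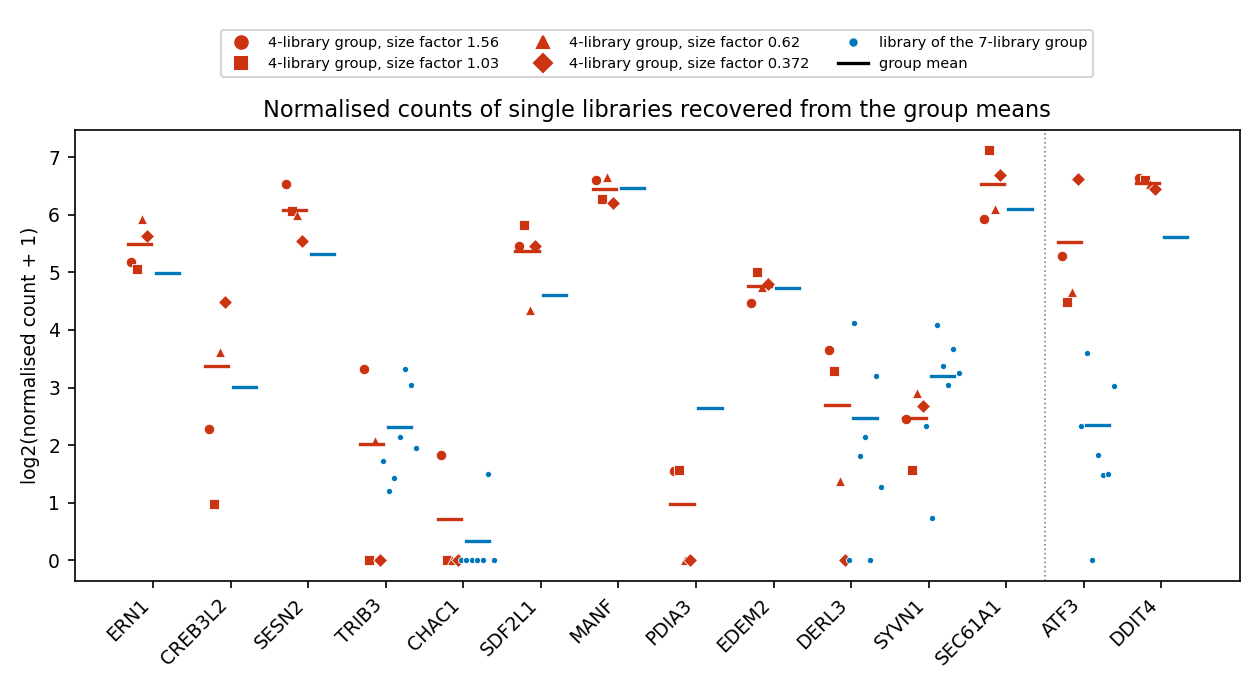
Normalised counts of single libraries, as log2(normalised count + 1), for the 12 genes of the list with recovered reads and for ATF3 and DDIT4 (right of the dotted line); red symbols are the 4 libraries by size factor, blue points the 7 libraries where their reads were recovered, and bars the group means. The 4 libraries of ATF3 lie above all 7, those of DDIT4 and SESN2 lie above the 7-library mean, and those of TRIB3, DERL3 and SYVN1 overlap with the 7.

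Other genes of the unfolded protein response, taken from a list of 40, placed the 28 genes in context. Of 29 with a row, 5 were at least 2-fold higher in the 4-library mean (17.2%) and 0 in the 7-library mean, against 12.3% and 9.59% of the rows with an overall mean of at least 10, a level that all 29 reached. The median log2 ratio was 0.01. HSPA5 (XM_004375665.1), the ER chaperone BiP that holds the sensors inactive, had means of 11101 and 2374, a log2 ratio of 2.23. DNAJB9, the co-chaperone that returns ERN1 to its inactive complex with HSPA5, had means of 1245 and 248, a log2 ratio of 2.33. The other 3 past 2-fold were ATF3, SELENOS with a log2 ratio of 1.39 and DNAJB11 with 1.26. HSP90B1, the ER chaperone usually induced together with HSPA5, had means of 2634 and 2913, a log2 ratio of -0.15.

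HSPA5 and DNAJB9 were thus as far apart as PPP1R15A, while HYOU1, PDIA4, PDIA6, MANF and HSP90B1, all known as genes induced by ER stress, had log2 ratios between -0.21 and 0.24. SDF2L1, CALR and HERPUD1 lay between these, at 0.58 to 0.78. No library values could be had for HSPA5, DNAJB9 or HSP90B1, and the difference between these ratios was not tested.

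ATF3, a stress-induced transcription factor and ATF4 target, was the only gene of this pathway with reads of all 11 libraries whose groups did not overlap. In the 4 libraries the normalised counts were 37.8, 21.4, 24.2 and 96.8. In the 7 libraries they ran from 0 to 11.1 with a median of 2.56. The lowest of the 4 libraries was above the highest of the 7, which held for 2.83% of the 4774 rows with reads of all 11 libraries. The log2 ratio was 3.47 (two-sided exact permutation p = 0.00606, the smallest possible, and 0.204 after Benjamini-Hochberg adjustment over 4774 rows). The library of size factor 0.372 held the highest value, and without it the log2 ratio was 2.77.

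Among 45 other targets of ATF4, 29 genes had a row, in 32 rows. At least 2-fold higher in the 4-library mean were 9 rows (28.1%, against 23.9% of all rows), of which 2 were rows of VLDLR with means under 4. Of the 27 rows with an overall mean of at least 10 it was 7 (25.9%), against 12.3% of the table at that level. Among the 7 was a row of NFE2L2 with means of 67.1 and 32.8, while the other row of NFE2L2 had 54.0 and 82.7. None of the 32 rows was 2-fold higher in the 7-library mean, and their median log2 ratio was 0.27. SLC7A11, the cystine importer, had means of 313 and 75.9, a log2 ratio of 2.04. CEBPG, a partner of ATF4 on its target genes, had a log2 ratio of 1.70, GADD45A of 1.45 and MTHFD2, an enzyme of mitochondrial one-carbon metabolism, of 1.43. Other known targets did not share these ratios. The 8 aminoacyl-tRNA synthetases with a row were all within 2-fold with a median of -0.13, and PHGDH, PSAT1 and PSPH, the enzymes of serine synthesis, had log2 ratios of -0.62, -0.54 and 0.36.

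DDIT4, an ATF4 target that restrains mTORC1 and was chosen after its values had been seen, had 98.1, 96.4, 91.9 and 86.1 normalised counts in the 4 libraries. The mean was 93.1 ± 5.38 (SD, n = 4) and the 7-library mean was 47.8, a log2 ratio of 0.96. The 4 libraries were closely grouped at about 2-fold above the other mean, whereas those of ATF3 and CREB3L2 differed widely among themselves.

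The other eIF2 kinases and the eIF2 machinery lay within 2-fold, apart from 1 row with few reads. Of 12 rows for 11 genes, 0 were at least 2-fold higher in the 4-library mean, against 23.9% of all rows. In the 7-library mean it was 1, against 10.4%, namely a row of NCK1 with 2 reads in the 4 libraries. Of the 11 rows with an overall mean of at least 10, 0 were 2-fold higher in either mean, against 21.9% of the table at that level. EIF2AK1, the heme-regulated kinase, had means of 389 and 687, a log2 ratio of -0.82, and EIF2AK4 (GCN2), the kinase for amino acid shortage, had 0.28. EIF2S1, the eIF2 subunit that these kinases phosphorylate, had means of 1154 and 663, a log2 ratio of 0.80, and EIF2S2 and EIF2S3 had 0.41 and 0.19. Of the eIF2B subunits, EIF2B4, EIF2B2 and EIF2B5 had 0.62, 0.53 and 0.16 and EIF2B3 had -0.16. Of the eIF2 kinases with a row, EIF2AK3 thus had the log2 ratio closest to 0.

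Cell type markers and genes of acute cell activation differed between the same means. Of 10 neutrophil genes with a row, 8 were at least 2-fold higher in the 7-library mean, against 9.59% of the rows with an overall mean of at least 10. The list had a median log2 ratio of -2.39. All 5 platelet genes with a row were at least 2-fold higher in the 4-library mean, against 12.3% of the rows at that level. Their median was 1.82, with summed means of 10516 and 3369, and TUBB1 had the largest count (6392 and 1422). Of 13 immediate early genes, which respond within minutes to activation or handling of cells, 10 were at least 2-fold higher in the 4-library mean, against 23.9% of all rows, and 8 of the 10 with an overall mean of at least 10. Their median was 2.17, with summed means of 27248 and 7294, and NR4A2, JUN, BTG2 and EGR1 at log2 ratios of 3.62, 3.41, 2.98 and 2.97. ATF4, PPP1R15A, TRIB1, ATF3 and HSPA5 were higher in the same mean as the platelet and immediate early genes, and the part of cell composition or of cell activation in their ratios was not tested. LAPTM5, CD53 and CORO1A, expressed in all leukocytes, had log2 ratios of 0.77, 0.05 and -0.67, and CD53 had means of 2180 and 2108. PTPRC and LCP1 of the same list had no row under their symbol.

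**Figure D4:**
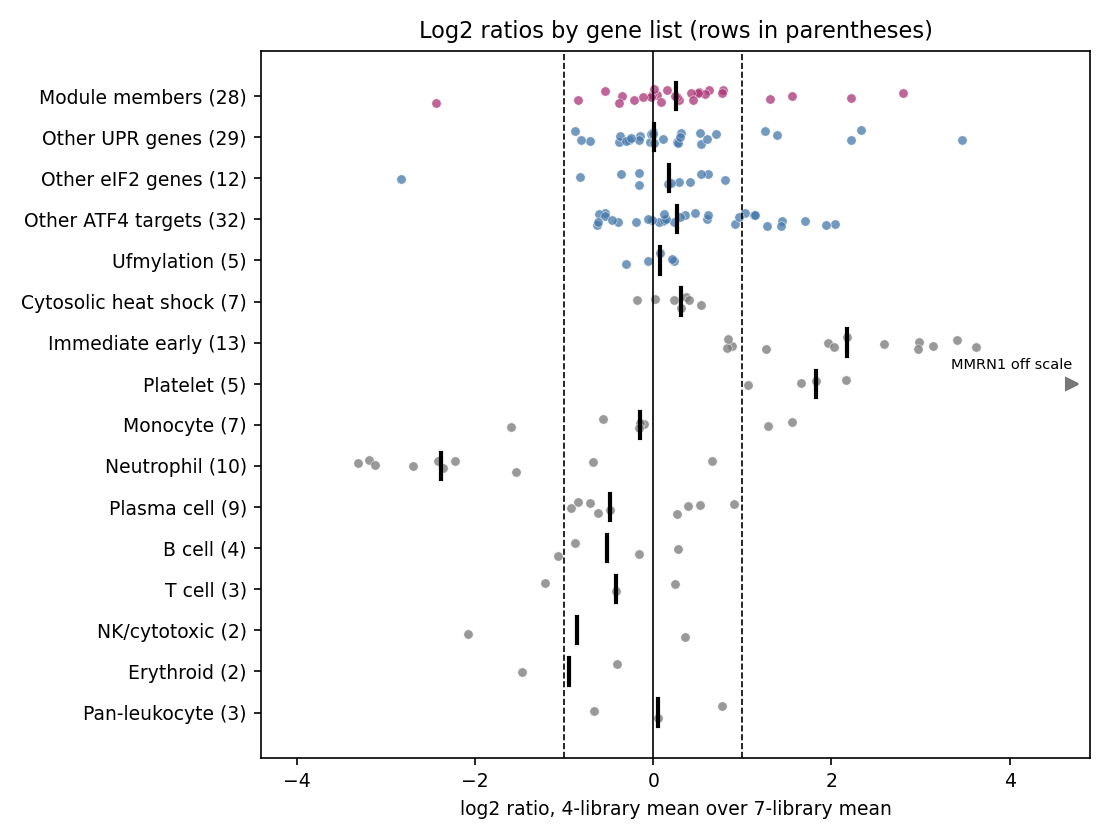
Log2 ratio (4-library mean divided by 7-library mean) for each row of the 28-gene list (top) and of the other lists, with black bars at the medians, dashed lines at 2-fold and the number of rows in parentheses; 1 platelet gene, MMRN1, lies off the scale at 8.47. The list of 28 genes centres near 0 with 4 points to the right of 2-fold, the immediate early and platelet genes lie to the right and the neutrophil genes to the left.

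The remaining blood cell lists had few rows. Of 7 monocyte rows 2 were at least 2-fold higher in the 4-library mean and 1 in the 7-library mean. Among the rows with an overall mean of at least 10, a level that all 7 reached, the shares were 12.3% and 9.59%. The median of the monocyte rows was -0.14, and LYZ had the largest count of that list. For T cells 1 of 3 rows and for B cells 1 of 4 were at least 2-fold higher in the 7-library mean. For cytotoxic cells it was 1 of 2 and for erythroid cells 1 of 2, against 10.4% of all rows. The cytotoxic gene was EOMES, with 3 reads in the 4 libraries. The 95% Poisson interval of these reads allows 1.44- to 20.4-fold, counting error only, and so reaches below 2-fold. The exact two-sided permutation test for EOMES gave p = 0.103. CD2, MS4A1, PRF1 and ALAS2 had the largest counts of the T cell, B cell, cytotoxic and erythroid lists in the overall mean. In the 4-library mean CD28 and BLK had the largest of the T cell and B cell lists. Both erythroid rows were higher in the 7-library mean, ALAS2 with a log2 ratio of -1.48 and SLC4A1 with -0.41, and their summed means were 182 and 486. The T cell genes CD3D, CD3E and CD3G and the B cell gene CD79A had no row under their symbol, so these cell types rest on few genes here.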

How the data were processed

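Reads were quality-filtered by the authors with Cutadapt and aligned with Bowtie2 to the TriManLat1.0 assembly. After duplicates had been taken out, they counted uniquely mapped reads for each gene sequence, using scripts of a University of Florida biotechnology centre together with SAMtools and DEB. The deposited values are a signal, namely counts scaled by the authors' DESeq size factor of each library and averaged within groups and overall. The table's fold change, log2 fold change, p-value and adjusted p-value columns hold the authors' own comparison and were not used. The number of unused per-sample columns was 0.

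The overall mean equalled the group means weighted by 4 and 7 of 11 libraries in every row, with a largest relative deviation of 3.34e-09. Records were paired with RefSeq symbols of TriManLat1.0 without the version number (10080 rows; 1658 with it). Genes and lists were chosen with earlier results of these data known. Every gene of the list with a row is named; of each other list, up to 4 with the largest ratio among genes with a mean of at least 10 in the higher group, the cell type gene with the largest count (that of the neutrophil list is not reported here), and HSPA5, HSP90B1, ATF3 and DNAJB9. DNAJB11, DDIT4, MZB1, FKBP11 and the smaller gene families were singled out after their values had been seen.

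Whole reads of single libraries were searched in means below 100 (4 libraries) and below 10 (7 libraries) and kept where 1 combination fitted the printed digits, which held for 99.9% of 10159 and 88.1% of 5439 rows; in 4774 rows both were found. The search was tested on simulated data. Libraries could not be linked to animals. Exact two-sided permutation tests of the difference in mean normalised count were run on all 4774 rows and adjusted over them by the Benjamini-Hochberg method; an adjustment over the list alone, planned first, was not made. Means below these limits are low counts of a transcript record, which need not mean low expression of its gene. Group means as such were not tested. Python with numpy, pandas and scipy was used.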

Additional observations from a re-analysis of the deposited data

Results flagged for a closer look

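In 10 of 80 groups of recovered values 1 library stood far from the others. Of these, 6 are groups in which only 1 library had reads, and such a group always has this gap: CHAC1 with 2.57 normalised counts in the 4 libraries and 1.81 in the 7, HSPD1 with 0.641 and 0.853, a row of NCK1 with 1.95 in the 4 libraries and MMRN1, a platelet gene, with 0.654 in the 7. The ratio of MMRN1, 354-fold, rests on 1 read, whose 95% Poisson interval allows 63.5- to 13979-fold; this is counting error only and leaves out the spread of its 4 libraries, which ran from 0 to 72.5 (33.0 ± 35.7, SD, n = 4). The other 4 groups were a row of VLDLR (highest of the 7 libraries 4.27), ATF5 (highest of the 7 libraries 4.27), BAG3 (highest of the 4 libraries 32.3) and EIF2B3 (lowest of the 4 libraries 30.6). Chance gives about 1 in 20 groups, a share that does not hold for groups with reads in 1 library.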

How the results depend on the processing

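The count of genes at least 2-fold apart was 5. It was 3 with rows of an overall mean of at least 10, 9 at 1.5-fold, 3 at 3-fold, and 1 of the 2 genes whose records matched with the version number; it was 4 with a pseudocount of 1, when CHAC1 dropped below 2-fold, and 5 under the other alternatives run. The median log2 ratio of 0.25 became 0.27 with means of at least 10, 0.23 with a pseudocount of 1, 0.11 after centring and 0.38 in the 2 genes matched with the version number, the last by its fewer genes; for the other shifts the cause was not tested. Centring turned the direction of none of the 5. Of the 5, CHAC1 and PDIA3 alone could be taken without single libraries and neither turned, but CHAC1 had no reads left in a group without its 1 library, so that setting gave no value. The count depends on single libraries: without 1 of them SDF2L1 (1.01), DERL3 (1.08), SYVN1 (-1.05 or -1.06) or TRIB3 (-1.89) passed 2-fold. The log2 ratio turned in sign without 1 library in CREB3L2, DERL3, TRIB3, MANF (-0.09 to 0.06) and EDEM2 (-0.05 to 0.13). Over these settings for single genes, 110 of 130 values stayed within 1 SD of the 4 libraries or, without library values, equal to 2 decimals, and 20 moved further. Omission of 1 of the 4 libraries shifts their mean by less than 1 SD, so most such values had to stay within this limit. Genes that turned in sign, such as CREB3L2 and DERL3, were counted as staying, and the tally is therefore no measure of stability. The exact permutation p of SYVN1 ranged from 0.0476 to 0.394, of TRIB3 from 0.117 to 1, of DERL3 from 0.343 to 1 and of CHAC1 from 0.6 to 1 over the statistics and libraries left out, and that of ATF3 from 0.00606 to 0.0167. No paired analysis was possible because the table gives group means and the recovered libraries carry no replicate numbers. Depth limits CHAC1, PDIA3, SYVN1 and TRIB3 most, which had 4, 5, 15 and 16 reads in the 4 libraries.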

Other observations

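Ufmylation, which tags ribosomes stalled at the ER, and the cytosolic heat shock response are relatives of the response described above. Of 5 ufmylation genes with a row none was 2-fold apart, against 21.9% of the rows with an overall mean of at least 10. The log2 ratios of the 5 genes ran from -0.31 for UFSP2 to 0.23 for UFC1, with a median of 0.07. Of 13 heat shock genes listed 7 had a row and none of these was 2-fold apart, against 34.3% of all rows. With an overall mean of at least 10 it was 0 of 6 rows, against 21.9% of the table at that level. The median of the 7 genes was 0.31, and 1 of them, HSPD1, is mitochondrial and had 1 read in each group. HSP90AA1 had means of 2013 and 1625, a log2 ratio of 0.31, HSPH1 had 0.53, DNAJB1 had 0.23, and HSF1, the master regulator of that response, had 0.02. HSPA1A, HSPA1B and HSPA8 had no row under their symbol. In a wider family taken by symbol after values had been seen (every DNAJA, DNAJB and HSPA gene except HSPA5, DNAJB9 and DNAJB11, not all of them cytosolic), 11 of 21 rows for 20 genes were at least 2-fold higher in the 4-library mean and 1, DNAJB13, in the 7-library mean, against 23.9% and 10.4% of all rows. The 4 highest log2 ratios among those with an overall mean of at least 10 were those of HSPA13 (1.70), DNAJB4 (1.68), DNAJB2 (1.58) and DNAJA1 (1.54).

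Of 12 translocon, signal peptidase and translocon-associated genes gathered after their values had been seen, 8 had a row and none was 2-fold apart. Among the rows with an overall mean of at least 10, 21.9% were at least 2-fold apart. The median log2 ratio of the 8 genes was 0.38, from -0.39 for SSR1 to 0.60 for SPCS1. Amino acid carriers among the ATF4 targets were higher in the 4-library mean in all 6 rows of 5 genes, as were 8629 of all 15298 rows. The median of the 6 rows was 0.60. SLC7A11 (2.04) and SLC7A1 (1.15), 2 of the 6 rows, were past 2-fold, against 23.9% of all rows.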
